A study of Medicago truncatula and Hordeum vulgare with 90 samples.

Results

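The genes described here are 4 nitrate transporter genes of Medicago truncatula: NRT2.1 (Medtr4g057890), NRT2.2 (Medtr4g057865), NRT2.3 (Medtr8g069775) and NRT1.3 (Medtr5g085850). These genes were chosen by name and identifier and not by a cut on measured values, but with earlier results of these data known. They are 4 of the 50894 gene identifiers of the M. truncatula count tables. All 4 passed the filter on low counts in seedling roots, where 24630 genes were tested, and 3 passed it in hairy roots, where 24004 genes were tested, NRT1.3 being the exception. In the Mt4.0 annotation the identifier carries the chromosome, which is 4 for NRT2.1 and NRT2.2, 8 for NRT2.3 and 5 for NRT1.3. The count tables give no start, end or exon, and no sequence of these genes was analysed here.

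Nitrate enters root cells through transporters of the plasma membrane that move it together with protons. NRT2 proteins are high-affinity transporters that work with a small partner protein, and in Arabidopsis NRT2.1 carries much of the uptake at low external nitrate, with a transcript that nitrate induces and reduced nitrogen represses. NRT1 proteins belong to another family of transporters (NPF), most of them of low affinity, and M. truncatula NRT1.3 is known as a transporter that works at both low and high nitrate. Root uptake of nitrate is of interest in this legume because its symbioses with nitrogen-fixing bacteria and mycorrhizal fungi both depend on the nutrient status of the plant.

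RNA was sequenced from whole roots of seedlings grown for 15 days on modified BNM plates, in 3 genotypes: the mutants nsp1-1 and nsp2-2 (nsp1 and nsp2 below), and their wild type A17. NSP1 and NSP2 are transcription factors of the GRAS family that act in root symbiosis. Each genotype was grown without phosphate and nitrate (-P-N), without nitrate (+P-N), without phosphate (-P+N) and with both (+P+N), nitrate being given as 5 mM, which made 12 groups of 3 libraries. A further 12 libraries came from hairy roots, the transgenic roots that follow transformation of A17 seedlings with Agrobacterium rhizogenes, selected by a RUBY reporter and kept in sand under +P+N for 21 days. They carried pLjUBI:3xFLAG-MtNSP1 (NSP1ox), pBdEF1a:3xMyc-MtNSP2 (NSP2ox), pBdEF1a:3xMyc-MtNSP2-miRR, in which NSP2 is resistant to its microRNA miR171h (miRR-NSP2ox), or an empty vector (EV), again with 3 libraries a group. Promoters of ubiquitin and EF1a genes are used for broad expression, and where the transgenes were expressed was not measured here. The background was A17, which carries its own NSP1 and NSP2. By the methods of the study, the +P medium of hairy roots held less phosphate than that of the seedling plates.

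Library totals lay between 16194286 and 25030726 counts in seedling roots and between 18251230 and 25919307 in hairy roots. Levels are given as CPM, counts scaled to the TMM-normalized library size, a scale that does not correct for gene length, so a level is compared between samples and not between genes. Nothing in the labels says whether replicate libraries came from separate pools of plants, so a p-value measures the spread between these libraries, which may be technical. No table used here pairs the identifiers with NSP1, NSP2 or root markers, and the genotype and tissue labels were therefore not checked against their own genes.

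Across seedling roots 3 of the 4 transcripts followed 2 opposite patterns. NRT2.1 and NRT2.2 were high where both nutrients were given, intermediate without phosphate and low without nitrate, whereas NRT2.3 was close to the limit of detection wherever nitrate was given and rose only where it was withheld. NRT1.3 varied least, from a mean of 8.72 CPM in nsp2 at -P-N to 3.19 CPM in nsp2 at +P+N. The correlation of log2(CPM + 0.5) over the 36 seedling libraries was 0.989 between NRT2.1 and NRT2.2, -0.872 between NRT2.1 and NRT2.3, and 0.618 between NRT2.3 and NRT1.3. These are descriptions, since the libraries of a group share their treatment.

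**Figure D1:**
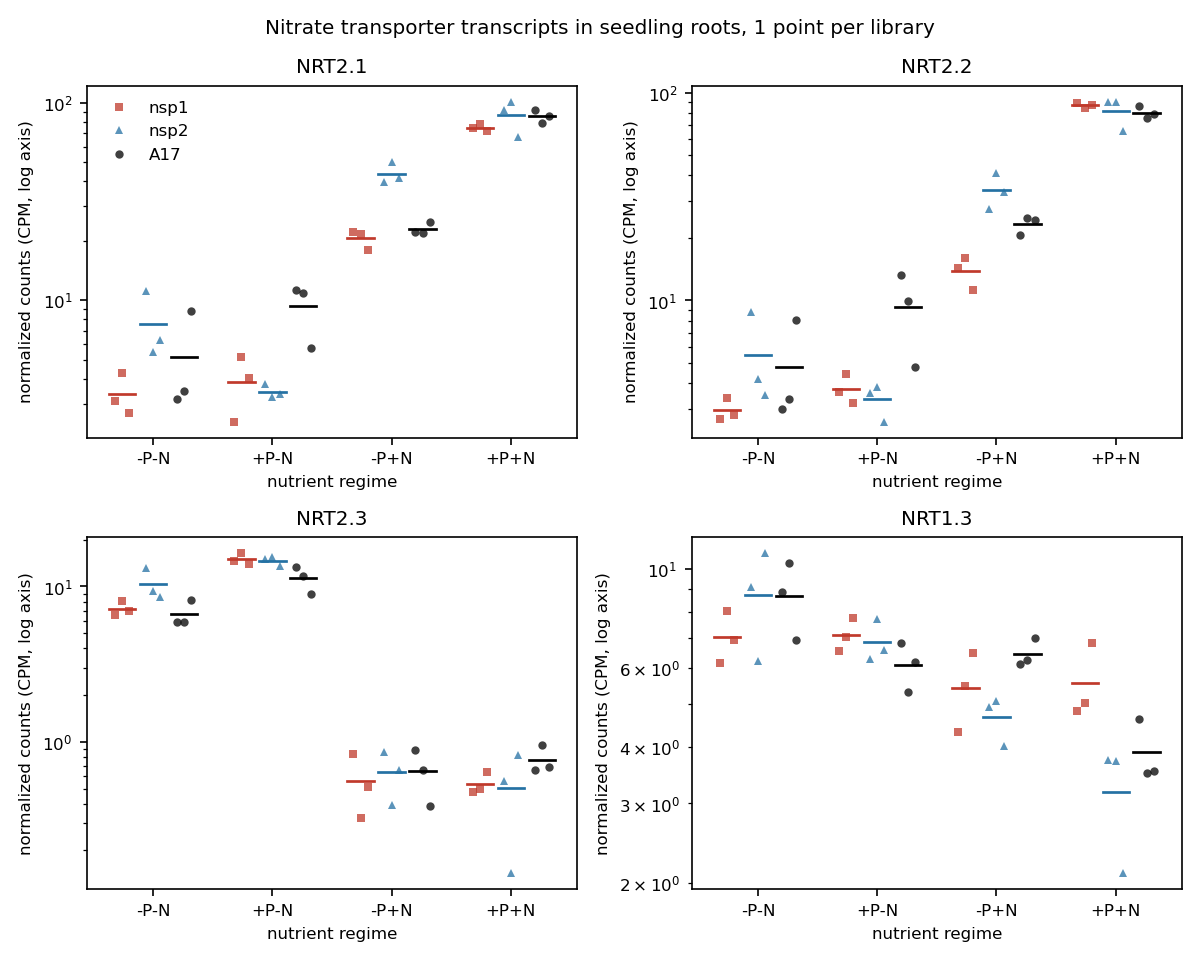
Normalized counts (CPM, log axis) of each nitrate transporter by nutrient regime in nsp1, nsp2 and A17 seedling roots; points are libraries and bars are means of 3. NRT2.1 and NRT2.2 are highest at +P+N, NRT2.3 lies between 5.9 and 16.3 CPM without nitrate and at or below 0.951 CPM with it, and the NRT1.3 groups overlap widely.

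In A17, 4 of the 4 genes changed at +P-N relative to +P+N, against a background of 57.1% of all tested genes. NRT2.1 had 11.3, 10.9 and 5.72 CPM at +P-N, against 92.1, 79.0 and 85.9 CPM at +P+N. NRT2.2 had 13.2, 9.99 and 4.8 CPM at +P-N, against 86.4, 75.4 and 79.1 CPM at +P+N. Every +P-N library lay far below every +P+N library for both genes. NRT2.1 fell 9.31-fold (log2 fold change -3.22 ± 0.24, SE, adjusted p = 0.000178) and NRT2.2 8.68-fold (-3.12 ± 0.33, adjusted p = 0.00128), by the quasi-likelihood test of edgeR; p-values are adjusted by the Benjamini-Hochberg method over all tested genes, here and wherever no other tool is named. In bulk roots, fewer cells of a type that expresses a gene and less RNA per cell cannot be told apart.

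NRT2.3, the high-affinity family member on chromosome 8, went the other way. It had 13.3, 11.7 and 8.96 CPM at +P-N in A17, against 0.662, 0.951 and 0.689 CPM at +P+N, where the libraries held only 11, 16 and 13 counts. The groups did not overlap, and the transcript rose 14.5-fold (log2 fold change 3.86 ± 0.22, adjusted p = 6.77e-10). NRT1.3 had 6.82, 5.3 and 6.2 CPM at +P-N, against 4.63, 3.51 and 3.55 CPM at +P+N. This was a rise of 1.55-fold (0.63 ± 0.16, adjusted p = 0.00417), small beside those of the other 3, with no overlap between the groups.

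Without phosphate alone, 3 of the 4 genes changed in A17, where the background was 29.4%. NRT2.1 had 22.1, 22.0 and 24.8 CPM at -P+N, against 92.1, 79.0 and 85.9 CPM at +P+N, and fell 3.70-fold (log2 fold change -1.89 ± 0.07, adjusted p = 4.13e-11). NRT2.2 had 20.7, 25.1 and 24.3 CPM at -P+N and fell 3.40-fold (-1.77 ± 0.08, adjusted p = 2.28e-10). The spread of both genes between replicates was narrow here, and the fall was less than that seen without nitrate. NRT1.3 had 6.12, 6.27 and 7.0 CPM at -P+N, all above the +P+N libraries, and rose 1.67-fold (0.74 ± 0.16, adjusted p = 0.00239). NRT2.3 had 0.883, 0.662 and 0.389 CPM at -P+N, from 16, 13 and 7 counts, which overlapped with +P+N. Its log2 fold change of -0.23 had a 95% interval from -1.08 to 0.61 (adjusted p = 0.708), so that changes within this interval remained compatible with these counts.

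When both nutrients were withheld, 4 of the 4 genes changed in A17, with a background of 60.4%. NRT2.1 had 3.18, 3.46 and 8.85 CPM at -P-N, against 92.1, 79.0 and 85.9 CPM at +P+N, a fall of 17.1-fold (log2 fold change -4.09 ± 0.37, adjusted p = 0.000685). NRT2.2 had 2.99, 3.35 and 8.06 CPM at -P-N and fell 17.2-fold (-4.11 ± 0.35, adjusted p = 0.000506). Replicate 3 stood above the other -P-N libraries for both genes, but still below every A17 library at -P+N or +P+N. NRT2.3 had 5.9, 5.92 and 8.15 CPM at -P-N and rose 8.54-fold (3.09 ± 0.23, adjusted p = 2.08e-08). NRT1.3 had 8.85, 10.3 and 6.93 CPM at -P-N and rose 2.22-fold (1.15 ± 0.17, adjusted p = 3.31e-05), with all -P-N libraries above all +P+N libraries.

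Replicate 3 of A17 differed from the other A17 libraries in both regimes without nitrate: NRT2.1 and NRT2.2 were highest in it at -P-N and lowest in it at +P-N. Its place was therefore checked on other genes. A score over 2136 genes that were higher and 2506 that were lower under -P-N relative to +P-N in both mutants was 0.64, 0.51 and 0.5 in the A17 -P-N libraries, against -0.28, -0.19 and -0.15 in the A17 +P-N libraries. On this score, a mean difference in log2(CPM + 0.5), each replicate 3 library lay with the group of its label. Comparisons that use these libraries are given with and without these libraries where that changed a call.

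The direction of the response to nitrate withdrawal was shared by nsp1 and nsp2. At +P-N relative to +P+N, 3 of the 4 genes changed in nsp1 (background 57.7%) and 4 in nsp2 (56.9%). NRT2.1 had 2.43, 5.14 and 4.06 CPM at +P-N in nsp1, against 74.7, 78.1 and 71.6 CPM at +P+N, a fall of 19.2-fold (log2 fold change -4.26 ± 0.17, adjusted p = 2.46e-07). In nsp2 it had 3.75, 3.25 and 3.34 CPM at +P-N, against 92.0, 101.0 and 67.3 CPM at +P+N, a fall of 25.7-fold (-4.68 ± 0.20, adjusted p = 1.91e-06). In neither mutant did any +P-N library come near a +P+N library.

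NRT2.2 behaved like its neighbor NRT2.1. It had 3.64, 4.42 and 3.2 CPM at +P-N in nsp1, against 89.4, 84.8 and 87.8 CPM at +P+N, and fell 23.4-fold (log2 fold change -4.55 ± 0.09, adjusted p = 1.46e-21). In nsp2 it had 3.6, 3.84 and 2.61 CPM at +P-N, against 90.4, 89.9 and 65.2 CPM at +P+N, and fell 25.0-fold (-4.64 ± 0.20, adjusted p = 9.98e-07). The falls in both mutants were larger in size than those in A17, a difference that is tested further on.

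NRT2.3 had 14.6, 16.3 and 13.9 CPM at +P-N in nsp1, against 0.477, 0.495 and 0.637 CPM at +P+N, a rise of 27.3-fold (log2 fold change 4.77 ± 0.18, adjusted p = 1.85e-16). In nsp2 it had 15.0, 15.5 and 13.5 CPM at +P-N, against 0.563, 0.143 and 0.817 CPM at +P+N, a rise of 29.1-fold (4.86 ± 0.26, adjusted p = 4.3e-09). The nsp2 library at 0.143 CPM rests on 3 counts, so the size of these folds depends on a reference that is barely detected. NRT1.3 rose 2.09-fold in nsp2 (1.06 ± 0.20, adjusted p = 0.000276). In nsp1 its log2 fold change was 0.34 ± 0.15 with an adjusted p of 0.0528, and its groups overlapped, at 6.55, 7.05 and 7.76 CPM against 4.82, 5.01 and 6.84 CPM.

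Phosphate withdrawal lowered NRT2.1 and NRT2.2 in both mutants, to an unequal degree. At -P+N relative to +P+N, 2 of the 4 genes changed in nsp1 (background 53.2%) and 2 in nsp2 (35.4%). In nsp1, NRT2.1 had 22.3, 21.7 and 18.0 CPM at -P+N, against 74.7, 78.1 and 71.6 CPM at +P+N, and fell 3.56-fold (log2 fold change -1.83 ± 0.08, adjusted p = 7.65e-11). NRT2.2 had 14.4, 16.1 and 11.2 CPM at -P+N, against 89.4, 84.8 and 87.8 CPM at +P+N, and fell 6.17-fold (-2.63 ± 0.10, adjusted p = 2.28e-11). In nsp1 the fall of NRT2.2 thus had the larger size, and the 95% intervals of -2.83 to -2.42 for NRT2.2 and -2.01 to -1.66 for NRT2.1 did not meet.

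In nsp2, NRT2.1 had 39.5, 50.4 and 41.5 CPM at -P+N, against 92.0, 101.0 and 67.3 CPM at +P+N, and fell 1.96-fold (log2 fold change -0.97 ± 0.17, adjusted p = 0.00475). NRT2.2 had 27.6, 41.3 and 33.4 CPM at -P+N, against 90.4, 89.9 and 65.2 CPM at +P+N, and fell 2.37-fold (-1.24 ± 0.18, adjusted p = 0.00323). The groups did not overlap for either gene, and replicate 3 at +P+N was the lowest of its group for both. NRT2.3 lay between 0.325 and 0.862 CPM at -P+N in both mutants and did not pass the test (adjusted p = 0.876 in nsp1 and 0.631 in nsp2). NRT1.3 had a log2 fold change of -0.02 ± 0.18 in nsp1 (adjusted p = 0.923) and of 0.56 ± 0.22 in nsp2 (adjusted p = 0.0675).

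At -P-N relative to +P+N, 3 of the 4 genes changed in nsp1 (background 60.8%) and 4 in nsp2 (58.6%). NRT2.1 had 3.08, 4.28 and 2.68 CPM at -P-N in nsp1 and fell 22.0-fold (log2 fold change -4.46 ± 0.11, adjusted p = 1.48e-14). In nsp2 it had 11.1, 5.48 and 6.3 CPM at -P-N and fell 11.5-fold (-3.53 ± 0.32, adjusted p = 0.000498). The nsp2 -P-N libraries were all above the nsp1 -P-N libraries for this gene. NRT2.2 fell 29.2-fold in nsp1 (-4.87 ± 0.09, adjusted p = 1.18e-16) and 15.1-fold in nsp2 (-3.92 ± 0.38, adjusted p = 0.000692). NRT2.3 rose 13.4-fold in nsp1 (3.74 ± 0.22, adjusted p = 2.02e-10) and 20.9-fold in nsp2 (4.39 ± 0.36, adjusted p = 2.84e-06). NRT1.3 rose 2.71-fold in nsp2 (1.44 ± 0.25, adjusted p = 0.000561), and in nsp1 had a log2 fold change of 0.36 ± 0.16 that did not pass the test (adjusted p = 0.0617).

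The comparisons of starved with replete roots share their +P+N libraries within a genotype. Of the 29 changes called in these 9 comparisons, all 29 stayed past the threshold when each library was left out in turn and under every other setting planned for the processing. The share of all genes that was called was itself between 29.4% and 60.8%, so the call as such does not set these genes apart.

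**Figure D2:**
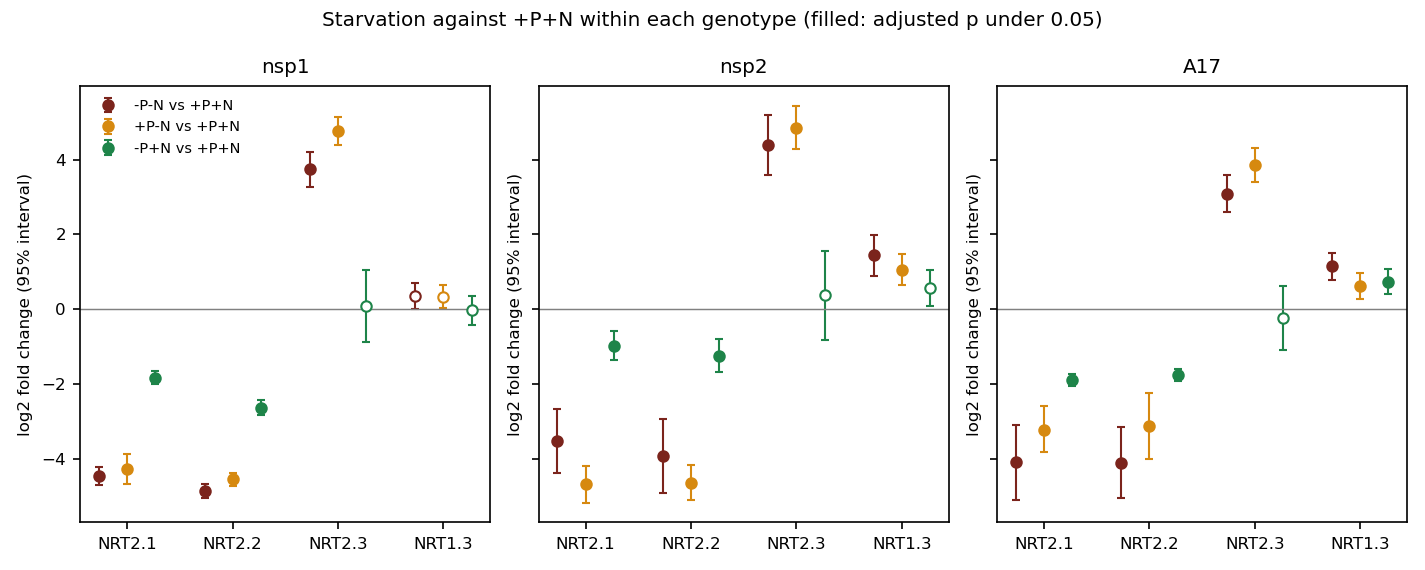
Log2 fold change of each nitrate transporter under each starvation regime relative to +P+N in nsp1, nsp2 and A17; bars are 95% intervals and filled points have an adjusted p under 0.05. NRT2.1 and NRT2.2 lie below 0 at every starvation regime, NRT2.3 lies above 3 wherever nitrate was withheld, and NRT1.3 lies between -0.02 and 1.44.

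The effect of 1 nutrient was then examined where the other was already absent. Withdrawal of phosphate from nitrate-starved roots (-P-N relative to +P-N) lowered NRT2.3 in all 3 genotypes. In nsp1, NRT2.3 had 6.56, 8.07 and 6.93 CPM at -P-N, against 14.6, 16.3 and 13.9 CPM at +P-N, and fell 2.07-fold (log2 fold change -1.05 ± 0.11, adjusted p = 7.25e-06). In nsp2 it had 13.2, 9.36 and 8.53 CPM at -P-N, against 15.0, 15.5 and 13.5 CPM at +P-N, and fell 1.40-fold (-0.49 ± 0.14, adjusted p = 0.0229). In A17 it had 5.9, 5.92 and 8.15 CPM at -P-N, against 13.3, 11.7 and 8.96 CPM at +P-N, and fell 1.70-fold (-0.76 ± 0.17, adjusted p = 0.00687). All -P-N libraries lay below all +P-N libraries of their genotype. The call in nsp2 was lost when -P-N replicate 2 or 3 or +P-N replicate 1 or 2 was left out (log2 fold change between -0.47 and -0.36, adjusted p between 0.0726 and 0.0852).

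In this comparison 1 of the 4 genes changed in nsp1 (background 28.5%), and 2 did so in nsp2 (29.3%) and in A17 (26.5%). The second gene in nsp2 was NRT2.1, with 11.1, 5.48 and 6.3 CPM at -P-N, against 3.75, 3.25 and 3.34 CPM at +P-N. It rose 2.23-fold (log2 fold change 1.15 ± 0.25, adjusted p = 0.0067), and replicate 1 was the highest at -P-N. NRT2.2 in nsp2 had a log2 fold change of 0.72 ± 0.37 (adjusted p = 0.196), and with the counts of NRT2.1 and NRT2.2 summed into 1 gene the change was 0.96 with an adjusted p of 0.0921. The second gene in A17 was NRT1.3, at 8.85, 10.3 and 6.93 CPM at -P-N, against 6.82, 5.3 and 6.2 CPM at +P-N. It rose 1.44-fold (0.52 ± 0.15, adjusted p = 0.0175), a call lost without -P-N replicate 1 (adjusted p = 0.0632), -P-N replicate 2 (0.0994) or +P-N replicate 2 (0.0751).

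NRT2.1 and NRT2.2 overlapped between -P-N and +P-N in A17, where their log2 fold changes were -0.86 ± 0.54 (adjusted p = 0.338) and -0.97 ± 0.59 (adjusted p = 0.326). Without A17 -P-N replicate 3, NRT2.1 was lower at -P-N by a log2 fold change of -1.48 (adjusted p = 0.0248). With all groups in 1 fit, both genes passed the test (adjusted p = 0.0459 for NRT2.1 and 0.0358 for NRT2.2). In nsp1 neither gene differed beyond the spread of its libraries (adjusted p = 0.591 for NRT2.1 and 0.188 for NRT2.2).

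Withdrawal of nitrate from phosphate-starved roots (-P-N relative to -P+N) changed 3 of the 4 genes in nsp1 (background 46.7%) and 4 in both nsp2 (42.1%) and A17 (46.8%). NRT2.1 fell 6.16-fold in nsp1 (log2 fold change -2.62 ± 0.15, adjusted p = 1.54e-09), 5.80-fold in nsp2 (-2.54 ± 0.26, adjusted p = 0.000414) and 4.56-fold in A17 (-2.19 ± 0.42, adjusted p = 0.0129). The A17 call was lost, at an adjusted p of 0.0502, without -P+N replicate 3. NRT2.2 fell 4.70-fold in nsp1 (-2.23 ± 0.16, adjusted p = 1.62e-08), 6.30-fold in nsp2 (-2.66 ± 0.37, adjusted p = 0.00318) and 5.0-fold in A17 (-2.32 ± 0.40, adjusted p = 0.00858).

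NRT2.3 rose 12.6-fold at -P-N relative to -P+N in nsp1 (log2 fold change 3.65 ± 0.26, adjusted p = 1.32e-08), 16.3-fold in nsp2 (4.03 ± 0.27, adjusted p = 1.79e-07) and 10.1-fold in A17 (3.34 ± 0.25, adjusted p = 1.96e-08). NRT1.3 rose 1.86-fold in nsp2 (0.90 ± 0.20, adjusted p = 0.00301). In A17 it had 8.85, 10.3 and 6.93 CPM at -P-N, against 6.12, 6.27 and 7.0 CPM at -P+N, so that the groups overlapped. Its log2 fold change there was 0.42 ± 0.14 (adjusted p = 0.0257), and this call was lost without -P-N replicate 1 or 2 or -P+N replicate 1 or 2 (adjusted p between 0.0568 and 0.138) and with all groups in 1 fit (0.0521).

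Whether the nitrate effect depended on phosphate was tested by an interaction term within each genotype, coded as the change on nitrate withdrawal without phosphate minus that with phosphate. It was called for 3 of the 4 genes in nsp1 (background 29.6%), for 2 in nsp2 (10.2%) and for 0 in A17 (22.2%). In nsp1 the term was 1.64 ± 0.29 for NRT2.1 (adjusted p = 0.00109) and 2.31 ± 0.19 for NRT2.2 (adjusted p = 4.42e-08), so that the fall on nitrate withdrawal was the smaller where phosphate was absent. In nsp2 it was 2.12 ± 0.38 for NRT2.1 (adjusted p = 0.00768) and 1.95 ± 0.48 for NRT2.2 (adjusted p = 0.0357). The nsp2 term of NRT2.2 was lost without any 1 of 7 of the 12 libraries (adjusted p between 0.0627 and 0.0963).

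For NRT2.3 in nsp1 the interaction was -1.13 ± 0.38 (adjusted p = 0.0279). It was lost without +P-N replicate 2, -P+N replicate 1, +P+N replicate 1 or +P+N replicate 2, where the term lay between -1.08 and -0.67, and with all groups in 1 fit (adjusted p = 0.0812). Its -P+N and +P+N libraries held 6 to 17 counts. In A17 the terms were 1.00 ± 0.50 for NRT2.1 (adjusted p = 0.202) and 0.77 ± 0.55 for NRT2.2 (adjusted p = 0.379) by edgeR, with 0 genes at an unadjusted p under 0.05 and 0 called by DESeq2. The 95% intervals in A17, from -0.14 to 2.14 for NRT2.1 and from -0.48 to 2.02 for NRT2.2, are wide, and the 3 genotypes were not compared for this term.

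The mutants were next set against A17 at the same regime; both mutants share the A17 libraries. With both nutrients given, 0 of the 4 genes were called in nsp1 (background 7.16%) and 0 in nsp2 (5.03%) by edgeR's quasi-likelihood test, and 0 by DESeq2 in either. At an unadjusted p under 0.05 there were 2 in nsp1 and 0 in nsp2. Throughout, a background is the share of all genes called by edgeR after adjustment. The shares at an unadjusted p or by DESeq2 are not given, so numbers under those settings have no background. NRT2.1 had 74.7, 78.1 and 71.6 CPM in nsp1, against 92.1, 79.0 and 85.9 CPM in A17. The nsp1 libraries were all below those of A17, by a narrow margin, with a log2 fold change of -0.20 ± 0.06 and an adjusted p of 0.0505. Without A17 replicate 2, the A17 library nearest to nsp1, the adjusted p was 0.00461, and no other library left out gave a call of NRT2.1. NRT1.3 had 4.82, 5.01 and 6.84 CPM in nsp1, against 4.63, 3.51 and 3.55 CPM in A17 (0.51 ± 0.18, adjusted p = 0.0978). In nsp2 the log2 fold changes at +P+N were 0.00 ± 0.16 for NRT2.1 and 0.01 ± 0.13 for NRT2.2, with 95% intervals from -0.39 to 0.40 and from -0.30 to 0.32.

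Without nitrate alone, NRT2.1 and NRT2.2 were lower in all 6 mutant libraries than in all A17 libraries, which both mutants share. The share of all genes that did not overlap was not computed, here or for other comparisons, so a lack of overlap is a description only. NRT2.1 at +P-N had 3.75, 3.25 and 3.34 CPM in nsp2, against 11.3, 10.9 and 5.72 CPM in A17, and was 2.72-fold lower (log2 fold change -1.44 ± 0.26, adjusted p = 0.00796). This call was lost without nsp2 replicate 2 (adjusted p = 0.0704) or nsp2 replicate 3 (0.055). NRT2.2 had 3.6, 3.84 and 2.61 CPM in nsp2, against 13.2, 9.99 and 4.8 CPM in A17 (-1.49 ± 0.44, adjusted p = 0.115). With all libraries kept, NRT2.2 was called by DESeq2 (adjusted p = 0.014), with all groups in 1 fit (0.0106) and with the replicate number as a block (3.66e-05). Without A17 replicate 3, the lowest A17 library and the nearest to nsp2, the change was -1.81 with an adjusted p of 2.84e-06. No other library left out gave a call of NRT2.2. Summed with NRT2.1, the change was -1.47 (adjusted p = 0.0945).

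In nsp1 at +P-N, NRT2.1 had 2.43, 5.14 and 4.06 CPM, against 11.3, 10.9 and 5.72 CPM in A17 (log2 fold change -1.25 ± 0.38, adjusted p = 0.194). NRT2.2 had 3.64, 4.42 and 3.2 CPM, against 13.2, 9.99 and 4.8 CPM in A17 (-1.32 ± 0.42, adjusted p = 0.223). Neither passed the main test with all libraries. Both did without A17 replicate 3, the A17 library nearest to nsp1 (-1.50 with an adjusted p of 0.0139, and -1.63 with an adjusted p of 1.99e-05). Neither did so with any other library left out. With all libraries kept, both passed with all groups in 1 fit (adjusted p = 0.034 and 0.0366) and without the robust option (0.0173 and 0.0184). The labels do not say that replicate numbers pair the samples, and deviations of same-numbered libraries from their group means correlated weakly here (0.13, 0.14 and 0.13). With the replicate number as a block, NRT2.2 (-1.26, adjusted p = 0.00195) and NRT2.3 (0.40, adjusted p = 0.0163) were called. NRT2.1 was not (-1.24, adjusted p = 0.158). That setting also called more of all genes, 1943 against 1105. The numbers called at +P-N were 0 of 4 in nsp1 (background 4.49%) and 1 of 4 in nsp2 (11.8%). There were 3 at an unadjusted p under 0.05 in each mutant, and DESeq2 called 0 in nsp1 and 2 in nsp2.

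NRT2.3 at +P-N had 14.6, 16.3 and 13.9 CPM in nsp1 and 15.0, 15.5 and 13.5 CPM in nsp2, against 13.3, 11.7 and 8.96 CPM in A17. All mutant libraries were above all A17 libraries, by log2 fold changes of 0.39 ± 0.13 in nsp1 (adjusted p = 0.105) and 0.36 ± 0.12 in nsp2 (adjusted p = 0.0728) that did not pass the test. Without A17 replicate 1, the A17 library nearest to the mutants, they were 0.53 (adjusted p = 0.0172) and 0.50 (adjusted p = 0.0119). In each mutant this was 1 of 6 fits with a library left out, and the only 1 with a call.

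Without phosphate alone the mutants parted, nsp2 with more NRT2.1 and NRT2.2 than A17 and nsp1 with less NRT2.2. NRT2.1 at -P+N had 39.5, 50.4 and 41.5 CPM in nsp2, against 22.1, 22.0 and 24.8 CPM in A17. It was 1.89-fold higher (log2 fold change 0.92 ± 0.09, adjusted p = 3.26e-05), and remained past the threshold without any 1 library. NRT2.2 had 27.6, 41.3 and 33.4 CPM in nsp2, against 20.7, 25.1 and 24.3 CPM in A17, and was 1.44-fold higher (0.53 ± 0.14, adjusted p = 0.0204). The NRT2.2 call was lost without A17 replicate 1 (adjusted p = 0.0582), without nsp2 replicate 3 (0.0535) and with all groups in 1 fit (0.111).

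NRT1.3 at -P+N was lower in nsp2, at 4.92, 5.08 and 4.02 CPM, against 6.12, 6.27 and 7.0 CPM in A17. The 1.40-fold difference (log2 fold change -0.48 ± 0.15, adjusted p = 0.0315) was lost without any 1 of the A17 libraries or nsp2 replicate 3 (adjusted p between 0.0588 and 0.117), by DESeq2 (0.0688) and with all groups in 1 fit (0.0625). These 3 of the 4 genes stood against a background of 27.9% for this comparison.

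The same regime gave 1 called gene of the 4 in nsp1 (background 33.1%). NRT2.2 had 14.4, 16.1 and 11.2 CPM in nsp1, against 20.7, 25.1 and 24.3 CPM in A17, and was 1.68-fold lower (log2 fold change -0.75 ± 0.12, adjusted p = 0.000357). The call held without any 1 library and under every other planned setting. NRT2.1 had 22.3, 21.7 and 18.0 CPM in nsp1, against 22.1, 22.0 and 24.8 CPM in A17, which overlapped (-0.15 ± 0.10, adjusted p = 0.244). With the counts of both genes summed, the change in nsp1 was -0.43 (adjusted p = 0.00317), and how far the NRT2.2 and NRT2.1 values differ depends on the split of reads between them.

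With both nutrients withheld, 0 of the 4 genes were called in nsp1 (background 2.65%; 0 at an unadjusted p under 0.05 and 0 by DESeq2) and 0 in nsp2 (6.18%; 1 at an unadjusted p under 0.05 and 1 by DESeq2). The gene called by DESeq2 was NRT2.3, at 13.2, 9.36 and 8.53 CPM in nsp2, against 5.9, 5.92 and 8.15 CPM in A17 (log2 fold change 0.64 ± 0.18, adjusted p = 0.0701 by edgeR and 0.0159 by DESeq2). Without A17 replicate 3, the A17 library nearest to nsp2, it was 0.81 (adjusted p = 0.0334), and no other library left out gave a call of NRT2.3 by edgeR. The 95% interval for NRT2.1 ran from -1.84 to 0.65 in nsp1 and from -0.86 to 2.00 in nsp2. Large differences, lower in nsp1 or higher in nsp2, thus remained within the intervals.

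**Figure D3:**
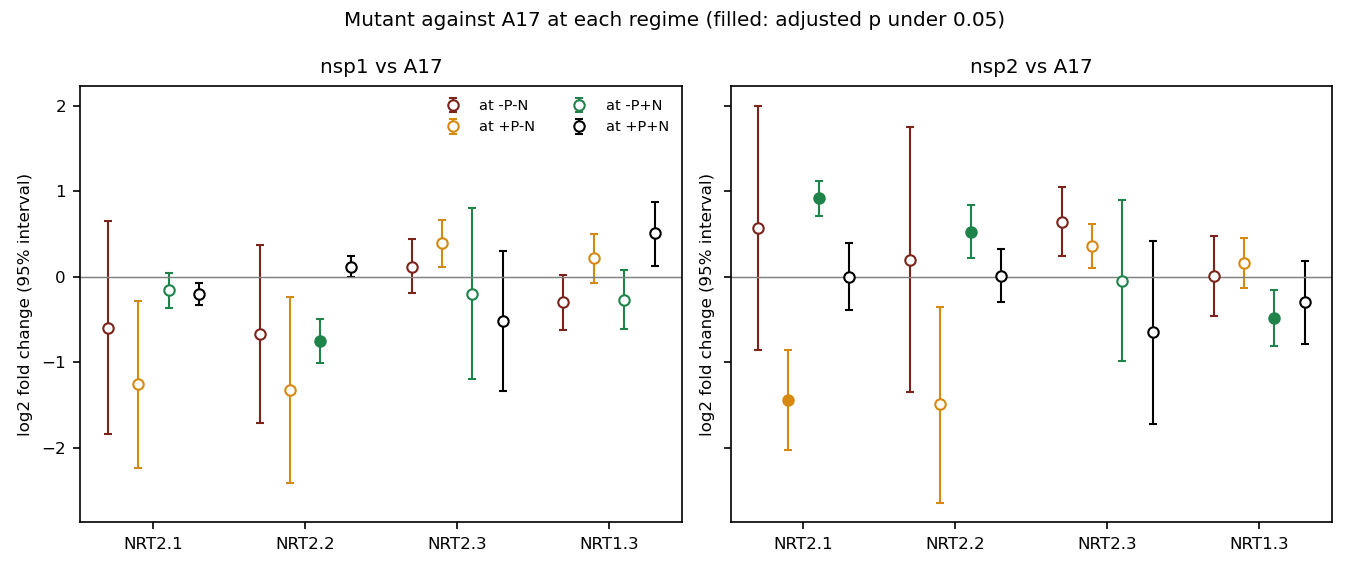
Log2 fold change of each nitrate transporter in nsp1 and nsp2 relative to A17 at each regime; bars are 95% intervals and filled points have an adjusted p under 0.05. The 5 filled points are NRT2.2 in nsp1 at -P+N, NRT2.1 in nsp2 at +P-N, and NRT2.1, NRT2.2 and NRT1.3 in nsp2 at -P+N.

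Differences between genotypes in the response itself were tested by an interaction term over 12 libraries, coded as the change from +P+N in the mutant minus that in A17. At -P+N, 2 of the 4 genes were called in nsp1 (background 30.9%) and 1 in nsp2 (15.6%). NRT2.2 fell further in nsp1 than in A17 (log2 term -0.87 ± 0.13, adjusted p = 7.11e-05), a call lost with all groups in 1 fit (adjusted p = 0.0787). The NRT2.1 term in nsp1 was 0.05 (adjusted p = 0.798), and that of the summed pair was -0.39 (adjusted p = 0.0114). NRT1.3 had a term of -0.78 ± 0.25 in nsp1 (adjusted p = 0.0209), its rise at -P+N being called in A17 and its level in nsp1 overlapping with +P+N. The mean of NRT1.3 was 5.56 CPM in nsp1 against 3.9 CPM in A17 at +P+N (log2 fold change 0.51, adjusted p = 0.0978). At -P+N it was 5.43 against 6.46 CPM, with overlap (-0.27, adjusted p = 0.229). Neither difference between nsp1 and A17 passed the test. The NRT1.3 term was lost without A17 -P+N replicate 3, A17 +P+N replicate 3, nsp1 -P+N replicate 1 or nsp1 +P+N replicate 3 (adjusted p between 0.0502 and 0.083). NRT2.1 fell less in nsp2 than in A17 (0.90 ± 0.20, adjusted p = 0.0119), which was lost with all groups in 1 fit (adjusted p = 0.056), and the summed pair had a term of 0.72 (adjusted p = 0.0389).

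The larger size of the fall at +P-N in the mutants did not pass the test. Relative to A17, the term was -1.05 ± 0.36 for NRT2.1 (adjusted p = 0.313) and -1.43 ± 0.39 for NRT2.2 (adjusted p = 0.197) in nsp1, and -1.45 ± 0.37 (adjusted p = 0.127) and -1.51 ± 0.46 (adjusted p = 0.204) in nsp2. By edgeR 0 of the 4 genes were called in nsp1 (background 1.25%) and 0 in nsp2 (1.97%). There were 3 at an unadjusted p under 0.05 in each, and DESeq2 called 1 in nsp1 and 2 in nsp2. These backgrounds do not apply to the unadjusted and DESeq2 numbers. Without A17 +P-N replicate 3, the terms of both genes were called in both mutants (between -1.81 and -1.29, adjusted p between 2.05e-06 and 0.0215). No other library left out gave a call of these terms, except for NRT2.1 in nsp2 without nsp2 +P+N replicate 3 (adjusted p = 0.0491). At -P-N, 0 of the 4 genes were called in nsp1 (background 5.07%) and 0 in nsp2 (0.702%), with 1 at an unadjusted p under 0.05 in each and 0 by DESeq2. In nsp1 the NRT1.3 term there was -0.80 (adjusted p = 0.0653), and without A17 -P-N replicate 3 it was -0.93 (adjusted p = 0.0311).

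NRT2.1 and NRT2.2 lie close together on chromosome 4. In the deposited table they are separated by 1 identifier, Medtr4g057880, which held 0 counts in all 36 seedling libraries, and in no library did the pair have identical counts. How reads that map to both genes were counted is not given in the sources used here, so the split of reads between them is uncertain. The share of their summed counts that fell on NRT2.1 was therefore followed as a measure of its own.

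In A17 the pair was even, with mean NRT2.1 shares of 51.6% ± 0.732 under -P-N, 50.9% ± 4.26 under +P-N, 49.6% ± 2.56 under -P+N and 51.6% ± 0.441 under +P+N (SD, n = 3 each). In nsp1 the share was 60.8%, 57.4% and 61.7% at -P+N, against 45.5%, 47.9% and 44.9% at +P+N. Each nsp1 -P+N library was also above the A17 -P+N libraries, at 51.6%, 46.7% and 50.5%. For replicate 1 of nsp1 the 95% Wilson interval was 57.2% to 64.2% at -P+N and 43.8% to 47.3% at +P+N; such intervals cover counting error only.

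In nsp2 the NRT2.1 share was 58.8%, 55.0% and 55.4% at -P+N, against 50.4%, 52.9% and 50.8% at +P+N, again without overlap. At -P-N it was 55.8%, 56.7% and 64.2% in nsp2, against 51.5%, 50.9% and 52.3% in A17. An exact permutation test (2-sided) gave p = 0.1 for each of these comparisons, the smallest that 3 libraries against 3 allow, and an adjusted p of 0.27 over the 27 comparisons made, so none could pass the threshold. In hairy roots the means lay between 48.3% and 49.4%.

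**Figure D4:**
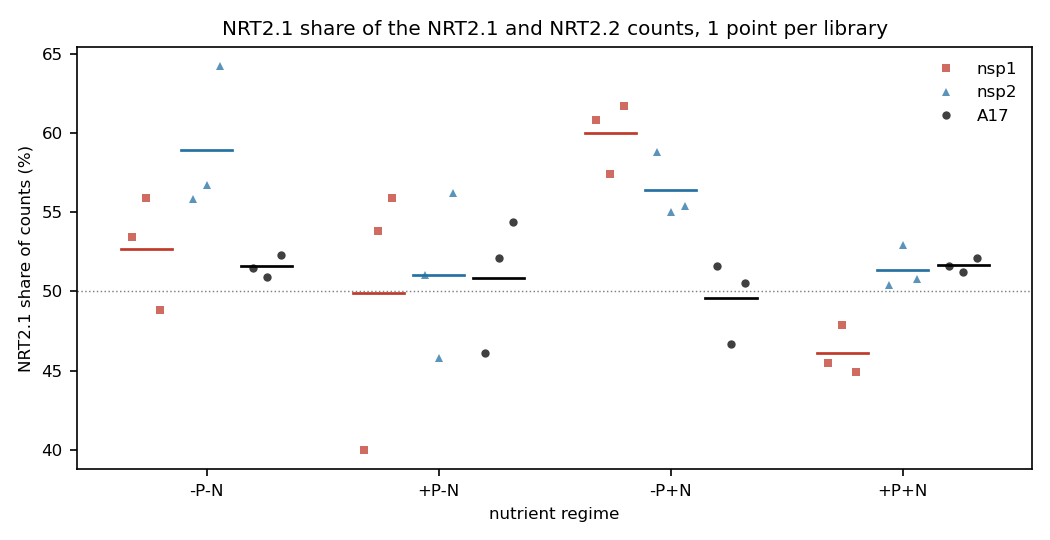
Share of the summed NRT2.1 and NRT2.2 counts that fell on NRT2.1 (%), by regime in nsp1, nsp2 and A17 seedling roots; points are libraries, bars are means of 3 and the dotted line marks an even split. The nsp1 libraries at -P+N lie between 57.4% and 61.7%, above those at +P+N, between 44.9% and 47.9%, and the A17 means lie between 49.6% and 51.6%.

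Ordered by mean, NRT2.1 was highest in nsp2, A17 and nsp1 at +P+N (86.8, 85.7 and 74.8 CPM), then in nsp2, A17 and nsp1 at -P+N (43.8, 23.0 and 20.7 CPM), and the 6 groups without nitrate followed between 9.29 CPM (A17 at +P-N) and 3.35 CPM (nsp1 at -P-N). Libraries of neighboring groups overlapped throughout the nitrate-starved part of this order, and between nsp2 and A17 at +P+N and A17 and nsp1 at -P+N. NRT2.2 had the same order of regimes, with nsp1 first at +P+N (87.3 CPM) and nsp1 last at -P+N (13.9 CPM), where its libraries overlapped with A17 at +P-N (9.32 CPM). NRT2.3 was ordered by nitrate first: nsp1, nsp2 and A17 at +P-N (14.9, 14.7 and 11.3 CPM), nsp2, nsp1 and A17 at -P-N (10.4, 7.19 and 6.65 CPM), and 6 groups with nitrate between 0.767 and 0.508 CPM that overlapped from each to the next. For NRT1.3, every group overlapped with the next in order, from nsp2 at -P-N down to nsp2 at +P+N.

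The genes with the pattern most like each transporter over the 36 seedling libraries were sought among the other 24629 tested genes, by Pearson correlation of log2(CPM + 0.5). For NRT2.1 they were NRT2.2 (0.989), Medtr4g104730 (0.969) and Medtr4g104700 (0.966), and for NRT2.2 they were NRT2.1 (0.989), Medtr5g015680 (0.971) and Medtr1g090820 (0.97). For NRT2.3 they were Medtr1g109380 (0.981), Medtr2g087950 (0.973) and Medtr3g113160 (0.973). NRT1.3 had less similar partners, Medtr7g109130 (0.896), Medtr2g044120 (0.857) and Medtr4g071445 (0.856). The libraries share the 4 regimes, no correlation within a regime was computed, and no annotation of the partners was used here.

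Overexpression was examined in hairy roots at +P+N, where the levels cannot be set against seedling roots, which differ in age, medium, phosphate concentration and transformation. NRT2.1 averaged 795 ± 88.2 CPM in NSP1ox, 738 ± 124 CPM in NSP2ox, 564 ± 98.4 CPM in miRR-NSP2ox and 710 ± 32.3 CPM in EV (SD, n = 3 each). NRT2.2 averaged 816 ± 94.1, 777 ± 117 and 599 ± 105 CPM in these lines and 761 ± 45.0 CPM in EV. NRT2.3 was detected with 109 to 428 counts per library, although these roots received nitrate.

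NRT2.3 was called lower in all 3 overexpression lines, and under the settings used for the results above it was the only transporter called there. The comparisons of the 3 lines share the EV libraries, so these calls of NRT2.3 are not independent of each other. Other settings also called NRT2.1 and NRT2.2 in miRR-NSP2ox, as given below. In miRR-NSP2ox it had 5.55, 8.44 and 6.16 CPM, against 21.3, 15.3 and 21.1 CPM in EV, and was 2.87-fold lower (log2 fold change -1.52 ± 0.17, adjusted p = 9.78e-06). All miRR-NSP2ox libraries lay well below all EV libraries, and the call held without any 1 library and under every other planned setting. In NSP1ox it had 8.16, 13.8 and 12.9 CPM and was 1.66-fold lower (-0.73 ± 0.20, adjusted p = 0.0468). In NSP2ox it had 15.6, 11.4 and 13.0 CPM, which overlapped with EV, and was 1.44-fold lower (-0.52 ± 0.14, adjusted p = 0.0124).

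The calls in NSP1ox and NSP2ox were lost without any 1 of several libraries, at log2 fold changes of much the same size. That in NSP1ox was lost without EV replicate 1 or 3 or NSP1ox replicate 3 (log2 fold change between -0.81 and -0.65, adjusted p between 0.0966 and 0.154). The NSP1ox call was also lost without the filter on low counts (0.066) and with the replicate number as a block (0.102). That in NSP2ox was lost without EV replicate 1 or 3 or NSP2ox replicate 2 or 3 (log2 fold change between -0.51 and -0.43, adjusted p between 0.0508 and 0.0749) and with all groups in 1 fit (0.0658). Set against NSP2ox, miRR-NSP2ox had 1.99-fold less NRT2.3 (log2 fold change -0.99 ± 0.16, adjusted p = 0.000348), without overlap, and this held without any 1 library and under every other planned setting. Each of these 4 comparisons called 1 of the 3 tested genes, against a background of 12.3% in NSP1ox, 26.8% in NSP2ox and 31.3% in miRR-NSP2ox relative to EV, and of 20.8% in miRR-NSP2ox relative to NSP2ox.

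NRT2.1 had 470, 666 and 554 CPM in miRR-NSP2ox, against 672, 729 and 728 CPM in EV, and NRT2.2 had 498, 707 and 593 CPM in miRR-NSP2ox, against 710, 789 and 786 CPM in EV. The miRR-NSP2ox libraries lay below those of EV for both genes, with replicate 2 the closest. The log2 fold changes were -0.34 ± 0.12 (adjusted p = 0.0658) and -0.35 ± 0.12 (adjusted p = 0.0708), short of the threshold by edgeR. DESeq2 called both (adjusted p = 0.00367 and 0.00279), as did edgeR without the robust option (0.0238 and 0.0216), an alternative added after the data were seen, and without miRR-NSP2ox replicate 1 (0.0323 and 0.0293) or 2 (7.7e-05 and 0.000146). In NSP1ox and NSP2ox both genes overlapped with EV, with log2 fold changes between 0.03 and 0.16; without NSP1ox replicate 1, both passed the test in NSP1ox (0.24 with an adjusted p of 0.00703, and 0.18 with an adjusted p of 0.0475).

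NRT1.3 was barely detected in hairy roots and was not tested. It had 1, 4 and 7 counts in NSP1ox, 23, 3 and 10 in NSP2ox and 6, 5 and 5 in miRR-NSP2ox, against 3, 1 and 3 in EV.

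**Figure D5:**
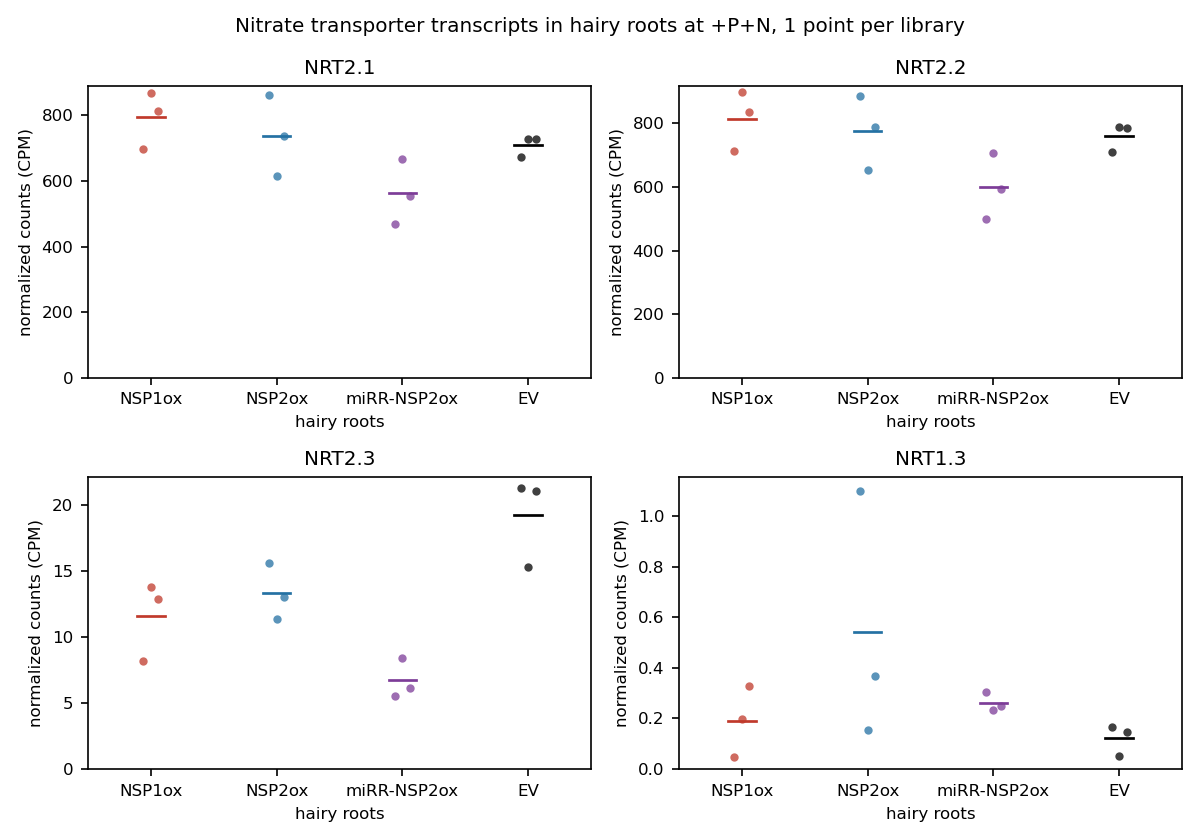
Normalized counts (CPM) of each nitrate transporter in hairy roots of NSP1ox, NSP2ox, miRR-NSP2ox and EV at +P+N; points are libraries and bars are means of 3. NRT2.3 lies between 5.55 and 8.44 CPM in miRR-NSP2ox, below the EV libraries between 15.3 and 21.3 CPM, and NRT1.3 is near 0 in all groups.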

How the data were processed

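RNA-seq counts per gene from 36 seedling and 12 hairy-root libraries of M. truncatula were used; 42 barley libraries were not used here. Poly-A enriched RNA was sequenced as paired-end reads by 2 companies, and which library went to which is not given in the sources used here. The authors checked reads with FastQC, aligned them to Mt4.0v1 with STAR, assigned them to genes with featureCounts and deposited raw whole-number counts. Versions, strand use and the handling of reads that map to several genes are not given in the sources used here.

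Each library was assigned to its group from its label. A gene was tested if 3 or more libraries of its table had a CPM of at least 0.492 (seedlings) or 0.494 (hairy roots), the value of 10 counts in the median library. Fits used the 6 libraries compared, or 12 for an interaction, with edgeR 4.0.16 (R 4.3.3): TMM normalization, quasi-likelihood test, robust option, and Benjamini-Hochberg adjustment over all tested genes with a threshold of 0.05. The standard error was taken from the log2 fold change and its F statistic (log2 fold change over the root of F), and the 95% interval uses the t quantile at the moderated residual degrees of freedom. At these totals, 1 count is about 0.05 CPM, so the error of levels near 0.5 CPM is dominated by counting.

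Libraries of 1 group differed by more than sampling noise (chi-square per gene between 1.98 and 80.4 over 48 pairs). Deviations of same-numbered libraries from their group means correlated between -0.14 and 0.23. All 3 correlations were over 0.1 only in nsp1 against A17 at +P-N (0.13, 0.14 and 0.13), 1 of 27 comparisons. The labels state no pairing, so the replicate number as a block is given there as an alternative.

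The transporters, the tests and the comparisons were chosen with earlier results of these data known. The genes named are the 4 transporters, the 3 genes most correlated with each, and adjacent rows that share counts. No identifier matched the reference gene table (MtrunA17r5.0), so a list of nitrogen genes could not be used. Alternatives were RLE size factors, DESeq2 1.42.0, other filters, all groups in 1 fit, the replicate number as a block, each library left out, the summed pair and a fold change above 1.5. The test without the robust option, an unadjusted p under 0.05 and the score of -P-N against +P-N libraries were added after the data were seen. On simulated data, 200 genes were changed, each 2-fold or 4-fold. They were drawn from genes above a minimum mean count, which NRT2.3 does not reach where nitrate was given to seedlings. At A17 -P+N against +P+N the test recovered 198 of them (19 false calls, 24576 genes). In nsp2 against A17 at -P+N it recovered 194 (25 false calls, 24603 genes). In miRR-NSP2ox against EV it recovered 189 (15 false calls, 24003 genes). For the interaction of nsp1 at -P+N it recovered 184 (12 false calls, 24610 genes). Recovery of smaller changes, of genes with low counts, or where a large share of all genes changes, was not tested.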

Additional observations from a re-analysis of the deposited data

Results flagged for a closer look

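These results have an interaction term between conditions or genotypes that passed edgeR's quasi-likelihood test after Benjamini-Hochberg adjustment. Of all genes, 29.6% in nsp1 and 10.2% in nsp2 passed for phosphate by nitrate. For the mutant minus A17 at -P+N, 30.9% passed in nsp1 and 15.6% in nsp2. Only the phosphate by nitrate terms of NRT2.1 and NRT2.2 in nsp1 and of NRT2.1 in nsp2 held without any 1 library and under every other planned setting. The nitrate effect without phosphate minus that with phosphate was 1.64 for NRT2.1, 2.31 for NRT2.2 and -1.13 for NRT2.3 in nsp1, and 2.12 for NRT2.1 and 1.95 for NRT2.2 in nsp2. Whether these terms differ from those in A17, 1.00 for NRT2.1, 0.77 for NRT2.2 and -0.54 for NRT2.3, was not tested. The change at -P+N in the mutant minus that in A17 was -0.87 for NRT2.2 and -0.78 for NRT1.3 in nsp1, and 0.90 for NRT2.1 in nsp2. NRT2.1 in nsp1 had a term of 0.05 ± 0.11 (SE) there, against -0.87 ± 0.13 for NRT2.2, its neighbor on chromosome 4. With the counts of both genes summed the term was -0.39 (adjusted p = 0.0114), and the contrast between the genes depends on the split of reads between them.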

How the results depend on the processing

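Of 62 calls, 50 held without any 1 library, 51 under every other planned setting that keeps all libraries, and 47 under both. The fold change over 1.5 is not part of these counts, and is given below only as the number of transporters called. The share that held under both differed by kind of comparison. It was 29 of 29 for starved against +P+N roots and 11 of 16 for -P-N against single starvation. It was 2 of 5 for mutant against A17, 2 of 4 in hairy roots and 3 of 5 for phosphate by nitrate. For mutant-minus-A17 interactions it was 0 of 3. No log2 fold change reversed among calls. The number of transporters called moved by over 1.5 times as follows, given with the number in the main test. With all groups in 1 fit it was 4 rather than 2 in A17 for -P-N against +P-N, 2 rather than 0 in nsp1 and 2 rather than 1 in nsp2 against A17 at +P-N, 1 rather than 3 in nsp2 at -P+N, 1 rather than 0 in nsp2 at -P-N, and 0 rather than 1 in NSP2ox; the interactions at -P+N gave 1 rather than 2 in nsp1 and 0 rather than 1 in nsp2. With a fold change over 1.5 it was 1 rather than 2 in A17 and in nsp2 for -P-N against +P-N, 1 rather than 3 in nsp2 against A17 at -P+N and 0 rather than 1 in NSP2ox. DESeq2 called 2 rather than 1 in nsp2 against A17 at +P-N, 1 rather than 0 at -P-N, 3 rather than 1 in miRR-NSP2ox, 2 rather than 1 in miRR-NSP2ox against NSP2ox, and 1 and 2 rather than 0 for the interactions at +P-N in nsp1 and nsp2. With the filter in at least 1 library it was 1 rather than 0 in nsp1 at +P+N. Without a filter it was 2 rather than 0 in nsp1 at +P+N, 1 rather than 0 at +P-N, 2 rather than 1 in nsp2 at +P-N, 1 rather than 0 there at -P-N, 0 rather than 1 in NSP1ox, 2 rather than 1 in NSP2ox (NRT1.3 then being tested on its few counts), 3 rather than 1 in miRR-NSP2ox against EV and against NSP2ox, 1 rather than 2 for phosphate by nitrate in nsp2, and 1 rather than 0 for the interaction at -P-N in nsp1. Without the robust option it was 2 rather than 0 in nsp1 and 2 rather than 1 in nsp2 at +P-N, 3 rather than 1 in miRR-NSP2ox against EV and against NSP2ox, and 1 and 2 rather than 0 for the interactions at +P-N in nsp1 and nsp2. At an unadjusted p under 0.05 it was 2 in nsp1 at +P+N, 3 at +P-N in both mutants, 1 in nsp2 at -P-N, 3 in miRR-NSP2ox against EV and against NSP2ox, 3 for the interactions at +P-N in nsp1 and in nsp2, 1 at -P-N in both, and 2 at -P+N in nsp2. Smaller changes were 3 rather than 4 in A17 for -P-N against -P+N (all groups in 1 fit, fold change over 1.5); 4 rather than 3 in nsp1 for +P-N or -P-N against +P+N and for -P-N against -P+N (no filter, unadjusted p, and the block except for -P-N against +P+N); 3 rather than 2 in nsp2 for -P+N against +P+N (no filter, all groups in 1 fit, block, unadjusted p) and for -P-N against +P-N (block); and 2 rather than 3 in nsp2 against A17 at -P+N (DESeq2) and for phosphate by nitrate in nsp1 (all groups in 1 fit). The cause of these changes was not tested. Shares of all genes at an unadjusted p are not given, so the numbers at that threshold have no background.

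With the replicate number as a block, 2 rather than 0 were called in nsp1 against A17 at +P-N. For nsp2 in the same comparison the number was 3 rather than 1. Hairy roots gave 0 rather than 1 in NSP1ox and 3 rather than 1 in miRR-NSP2ox. The labels do not say that samples sharing a replicate number are paired. With each library left out, the number of transporters called lay between 1 and 3 in A17, and between 1 and 2 in nsp2, for -P-N against +P-N. It lay between 3 and 4 in A17 and nsp1 for -P-N against -P+N, and in nsp1 for +P-N and -P-N against +P+N. Against A17 it lay between 0 and 1 in nsp1 at +P+N, 0 and 2 in nsp1 at +P-N, 0 and 2 in nsp2 at +P-N, 1 and 3 in nsp2 at -P+N, and 0 and 1 in nsp2 at -P-N. In hairy roots it lay between 0 and 3 in NSP1ox, 0 and 1 in NSP2ox, and 1 and 3 in miRR-NSP2ox against EV and against NSP2ox. For the interactions it lay between 2 and 3 in nsp1 and 1 and 2 in nsp2 for phosphate by nitrate, 0 and 2 in both mutants at +P-N, 1 and 2 in nsp1 at -P+N, and 0 and 1 in nsp1 at -P-N.

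Over all genes, the number called moved by over 1.5 times for nsp1 against A17 at +P-N (1684 without a filter and 1943 with the block, against 1105) and at -P-N (995 without a filter, against 652), for nsp2 against A17 at +P+N (2026 with all groups in 1 fit, against 1239), and for the interactions of nsp1 at +P-N (182 with all groups in 1 fit, against 308) and nsp2 at -P-N (402 by DESeq2, 290 without a filter and 333 with all groups in 1 fit, against 173). RLE size factors shifted the median of all genes by -0.015 to 0.03 on the log2 scale. The depth limits NRT2.3 where nitrate was given, with 3 to 17 counts a library, and NRT1.3 in hairy roots, with 1 to 23.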
